A study of Mus musculus with 2 samples.

Results

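The folliculin complex and the MiT/TFE transcription factors were described in the CD31+ cells of mouse mesentery at postnatal day 8 (P8). Their 7 genes, Flcn, Fnip1, Fnip2, Tfe3, Tfeb, Tfec and Mitf, were taken by gene symbol from the 28692 genes of the count tables, and each symbol matched 1 gene. The study deposited 1 control library and 1 library from Flcn iΔEC mice, each from the pooled cells of 3 mice of the C57BL/6 strain. In Flcn iΔEC mice a tamoxifen-inducible Cre under a Cdh5 regulatory sequence (Cdh5-BAC-CreERT2) acts on floxed Flcn alleles in endothelial cells. The alleles of the control mice were not given in the sources used here. By the labels, pups of both groups were given 40 ug of 4-hydroxytamoxifen under the skin, first at P2 and last at P6.5 with doses at P3.5 and P5 between, and cells were bound to CD31 beads at P8.

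Folliculin, the product of Flcn, works in a complex with FNIP1 or FNIP2 at the surface of lysosomes. There it acts as a GTPase-activating protein for RagC and RagD, and the Rag GTPases in this state present TFEB and TFE3 to mTORC1, whose phosphorylation keeps these factors in the cytoplasm. TFEB, TFE3, MITF and TFEC are related basic helix-loop-helix leucine zipper proteins that bind E-box sequences, and TFEB and TFE3 are known for driving genes of lysosomes and autophagy. Folliculin loss lets them enter the nucleus in many cell types. In the vasculature, the study traced the consequences for lymphatic endothelial cells (LECs) and venous endothelial cells (VECs).

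On the GRCm38 build, Flcn lies on chromosome 11 from 59791408 to 59810016 (minus strand), and Fnip1 on the same chromosome from 54438199 to 54518235 (plus strand). Fnip2 lies on chromosome 3 from 79455974 to 79567796 (minus strand). Tfe3 lies on chromosome X from 7762560 to 7775202, and Tfeb on chromosome 17 from 47737030 to 47792419, both on the plus strand. Tfec and Mitf share chromosome 6, Tfec from 16833373 to 16898441 (minus strand) and Mitf from 97807052 to 98021349 (plus strand). No other counted gene overlaps any of the 7 on its own strand.

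The control library held 6814 cells and 64639756 unique molecular identifiers (UMIs, each a count of 1 captured transcript), and the Flcn iΔEC library 4459 cells and 60805779 UMIs, with 6 cell barcodes in both. Endothelial cells were those with at least 2 UMIs of Cdh5 (VE-cadherin), 566 control and 892 Flcn iΔEC cells, of which 22 and 21 had exactly 2, while 164 and 137 of the remaining cells had 1. Summed over 9 pan-endothelial markers, Cdh5 included, the level was 5634 and 5665 CPM (UMIs per 1000000 UMIs of the group) in these cells, against 176 and 162 CPM in all others. Those others include a cluster of 108 control and 147 Flcn iΔEC cells with 8 of the 9 markers raised, called endothelial-like under the Cdh5 threshold. Clusters carry the name of a type with the ending -like where the marker lists allowed it. Among the endothelial cells these were LEC-like (79 control and 299 Flcn iΔEC cells), VEC-like (69 and 123), arterial or AEC-like (129 and 135), capillary-like (83 and 38), high endothelial venule or HEV-like (58 and 75) and proliferating (55 and 60) cells. These classes rest on the integration of both libraries. Without it no cluster was named VEC-like, 2 unnamed clusters held 64 control and 1 Flcn iΔEC and 1 and 129 cells, and 2 of 4 LEC-like clusters held 2 and 157 and 50 and 8 cells. A UMI of Ptprc, the pan-leukocyte gene, was found in 83% of control and 80% of Flcn iΔEC HEV-like cells, and a further cluster of 46 cells, led by hemoglobin genes, had no control cell. Sex-linked genes set the libraries apart, with 9 control and 63462 Flcn iΔEC UMIs of Xist and 15535 and 17 UMIs of 4 Y-linked genes. Sex and genotype therefore cannot be told apart in any ratio between the libraries. Endothelial cells were deeper in the Flcn iΔEC library, with a median of 24415 UMIs per cell against 16127.

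With 1 library per genotype there is no replicate error, so no p-value is given. Intervals are exact 95% intervals for counts, ratios and shares, cover counting error only, and leave the spread between mice unknown. A ratio is called higher or lower where its interval leaves out 1. In endothelial cells 2 (Fnip1 and Fnip2) of the 6 members with at least 50 UMIs were higher by this rule and 1 (Tfeb) was lower, beside 19.7% and 40.6% of the 12798 genes tested. None of the 6 passed a 2-fold ratio, which 3.66% of tested genes passed upward and 6.24% downward, 9.91% in all. In all other cells none of the 7 was higher and 2 (Tfeb and Tfec) were lower, where 28.6% of the 13733 tested genes were higher and 29% lower. Only Tfec passed 2-fold there, beside 6.85% of genes upward and 1.86% downward, 8.72% in all. The median gene stood at a log2 ratio of -0.13 in endothelial cells and 0.00 in the other cells. Relative to a median gene set to no change, the endothelial ratios given below became 2.17 for Fnip1, 2.06 for Fnip2, 0.840 for Tfeb, 0.962 for Tfe3 and 1.04 for Flcn, which alone changed sides of 1.

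Flcn, the targeted gene, had 143 UMIs in control and 265 in Flcn iΔEC endothelial cells. The levels were 10.2 CPM (8.64 to 12.1) and 9.74 CPM (8.60 to 10.98), a ratio of Flcn iΔEC over control of 0.95 (0.77 to 1.17). UMIs mark the 3′ end of a transcript, and the floxed exons were not given in the sources used here, so this level does not check the deletion. In the other cells Flcn stood at 17.0 and 15.4 CPM, a ratio of 0.91 (0.81 to 1.02). Of the named types it was highest in B-cell-like cells, at 25.8 control and 25.9 Flcn iΔEC CPM, which was 2.08 (1.82 to 2.39) and 2.54 (2.13 to 3.04) times the level of all other non-endothelial cells. The unnamed cluster led by S100a9 and Lyz2 had 29.3 and 28.8 CPM, from 18 and 10 UMIs. Among the named endothelial types it ranged from 4.14 to 16.1 CPM in control mice and from 7.80 to 17.7 CPM in Flcn iΔEC mice, and no neighbours in the order of levels were set apart in both libraries. Capillary-like cells, with 4 and 11 UMIs, were the only named endothelial type with an interval that left out 1, at 4.28 (1.27 to 18.4). Outside the endothelium Flcn was lower in proliferating other cells, at 0.56 (0.31 to 0.99) from 37 and 20 UMIs. It was also lower in the unnamed cluster led by Fabp1 and Lypd8, at 0.42 (0.25 to 0.70) from 36 and 32 UMIs. Erythroid-like cells had no Flcn UMI in either library, where 3 counts would make 6.52 and 4.15 CPM.

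**Figure D1:**
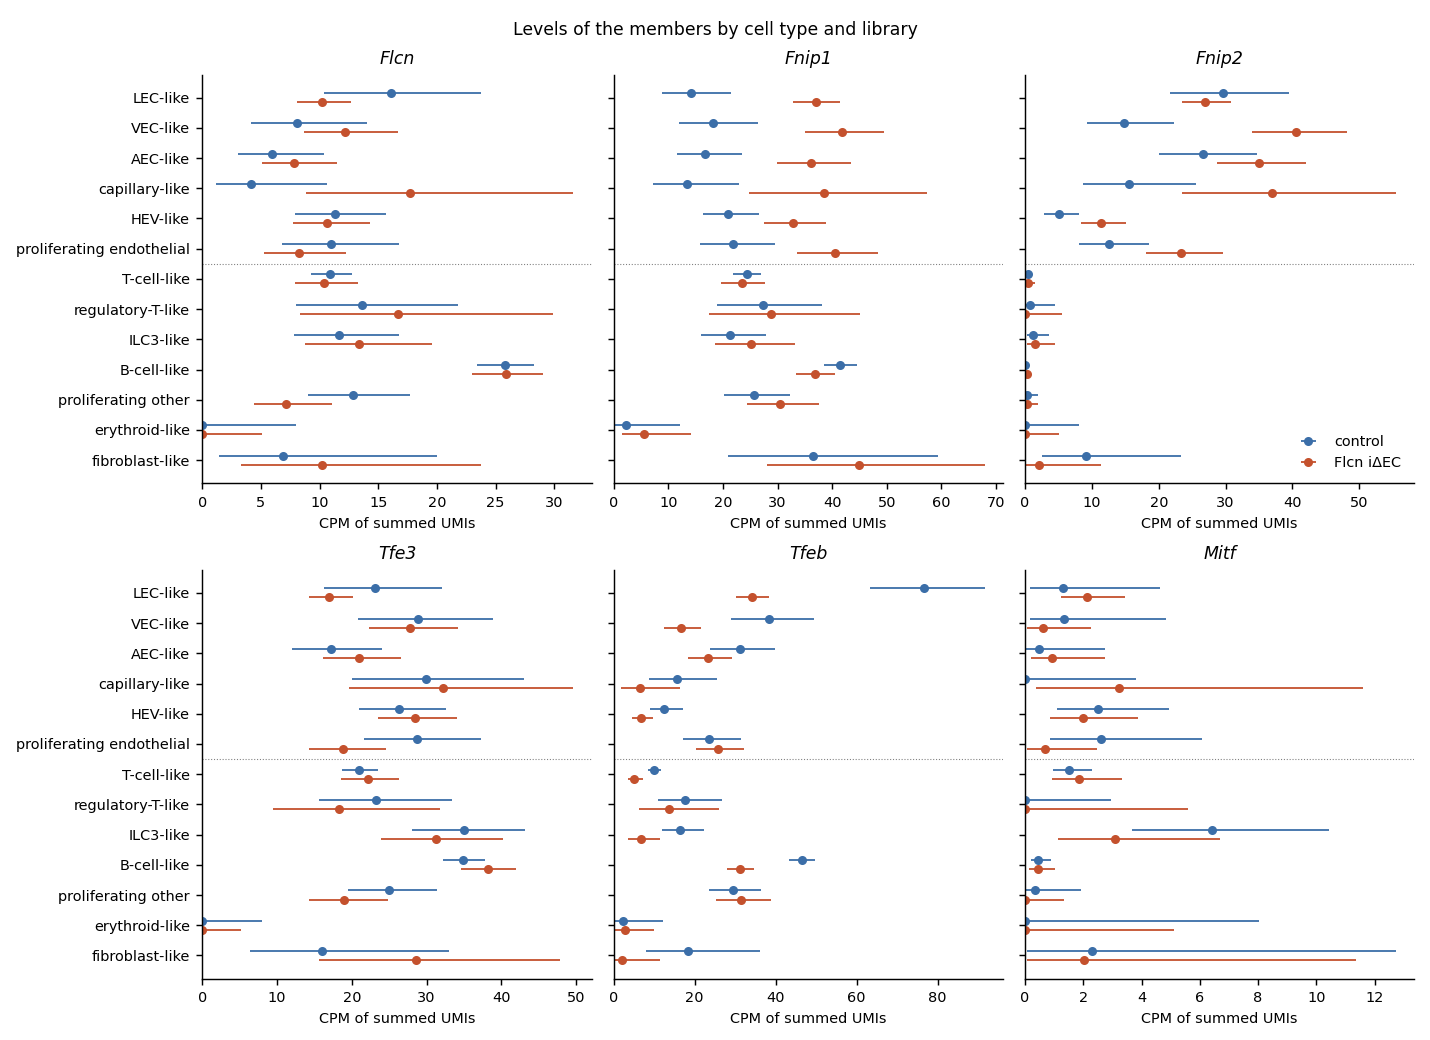
Level of 6 members in the 13 named cell types, as CPM of UMIs summed over cells with exact 95% counting intervals, in the control (blue) and Flcn iΔEC (orange) library, each panel with its own axis and the endothelial types above the dotted line. Fnip1 in all 6 endothelial types lies further right in the Flcn iΔEC library, Fnip2 lies near 0 in lymphoid cells, and Tfeb is highest in control LEC-like cells at 76.5 CPM.

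Both FNIP genes, which encode the partners of folliculin, were higher in Flcn iΔEC endothelium. Fnip1 had 263 UMIs in control endothelial cells, or 18.8 CPM (16.6 to 21.3), and 1018 UMIs in Flcn iΔEC endothelial cells, or 37.4 CPM (35.1 to 39.8). The ratio was 1.99 (1.73 to 2.28), and 3.76% of the tested genes had a ratio at least as high. In the other cells Fnip1 stood at 28.9 and 27.0 CPM, a ratio of 0.93 (0.86 to 1.01). Fnip1 in endothelium was thus below the other cells of its library in control mice, at 0.65 times (0.57 to 0.74), and above them in Flcn iΔEC mice, at 1.39 times (1.27 to 1.52). The latter depended on the scale: with mitochondrial, ribosomal protein and hemoglobin genes left out of the total, it was 1.07 (0.97 to 1.17).

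Fnip1 was higher in each of the 6 named endothelial types. Of the genes tested there, 11.7% were higher in LEC-like, 13.7% in VEC-like, 11.5% in AEC-like, 11.1% in capillary-like, 16.1% in HEV-like and 16.4% in proliferating endothelial cells. In LEC-like cells it went from 14.2 to 37.0 CPM (22 and 294 UMIs), a ratio of 2.61 (1.69 to 4.24). In VEC-like cells it went from 18.1 to 41.8 CPM, a ratio of 2.31 (1.52 to 3.64). AEC-like cells had 16.8 and 36.2 CPM, a ratio of 2.16 (1.46 to 3.26). The capillary-like value rested on 13 and 24 UMIs, with a ratio of 2.87 (1.40 to 6.14). The smallest ratios were those of HEV-like cells, 1.57 (1.16 to 2.13), and proliferating endothelial cells, 1.85 (1.29 to 2.69). After the rise the 6 types lay close together, between 32.9 and 41.8 CPM, against 13.4 to 21.9 CPM in the control. Among 3 LEC-like clusters the ratio was 3.03 (1.603 to 6.45), 2.52 (1.19 to 6.41) and 1.91 (0.71 to 6.46), so the interval of the smallest cluster, led by Tnxb and Lyve1, included 1.

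AEC-like cells came from different clusters in the libraries. The cluster led by Gkn3 and Gja5 held 51 control and 110 Flcn iΔEC cells and had Fnip1 at 22.2 and 33.3 CPM, a ratio of 1.498 (0.95 to 2.46). The cluster led by Cxcl12 and Rbp7 held 78 and 25 cells and had 10.6 and 53.0 CPM (10 and 25 UMIs), a ratio of 5.02 (2.33 to 11.7). The direction was the same in both clusters, with an interval that left out 1 in the second. The unnamed endothelial clusters led by Ccl2 and Marco and by Ccl4 and Ifitm1 had ratios of 2.46 (1.28 to 5.21) and 2.35 (1.47 to 3.86). A Ptprc UMI was present in 90% and 85% of the cells of the latter. In the cluster led by Cd3d and Trac Fnip1 had 10 and 3 UMIs, a ratio of 0.37 (0.07 to 1.45), and in that led by Ly6d and Igkc 12 and 19 UMIs, a ratio of 1.89 (0.87 to 4.27).

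In lymphoid cells of the same libraries the intervals for Fnip1 included 1. B-cell-like cells, in which FNIP1 is known to be needed for development, had 41.4 CPM (719 UMIs) and 36.9 CPM (416 UMIs), a ratio of 0.89 (0.79 to 1.01). In T-cell-like cells the values were 24.3 and 23.4 CPM, a ratio of 0.96 (0.78 to 1.17), and ILC3-like cells had 21.3 and 25.2 CPM, a ratio of 1.18 (0.78 to 1.78). B-cell-like cells stood above the other non-endothelial cells in both libraries, by 1.85 (1.66 to 2.05) and 1.67 (1.47 to 1.91) times. Fibroblast-like cells, with 16 and 22 UMIs, had 36.6 and 44.9 CPM.

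Fnip2, unlike Fnip1, was far higher in the endothelium than in the pool of all other cells. It had 200 UMIs in control endothelial cells, or 14.3 CPM (12.4 to 16.5), and 734 in Flcn iΔEC endothelial cells, or 27.0 CPM (25.1 to 29.0). The much larger pool of other cells held only 37 and 30 UMIs, or 0.730 and 0.893 CPM. Of these, 2 and 4 UMIs came from the endothelial-like cluster under the Cdh5 threshold, at 8.46 and 14.3 CPM. The level in endothelium was 19.6 times (13.8 to 28.7) that of the other cells in control mice and 30.2 times (21.0 to 45.1) in Flcn iΔEC mice. B-cell-like cells had 1 UMI in 2353 control cells and 4 UMIs in 1310 Flcn iΔEC cells, and T-cell-like cells 7 and 3 UMIs. Fibroblast-like cells came nearest among the named types outside the endothelium in control mice, with 9.14 CPM from 4 UMIs. An unnamed cluster led by Ins2 and Spp1 had 11.2 CPM from 6 UMIs in control mice and no UMI in Flcn iΔEC mice. The unnamed cluster led by Fabp1 and Lypd8 held 9 and 10 of the UMIs outside the endothelium, at 4.59 and 2.42 CPM. The pool of other cells was mostly leukocytes, with a Ptprc UMI in 89% of control and 81% of Flcn iΔEC cells. The share of cells with a Fnip2 UMI in endothelium was 27.6% (23.9 to 31.4) for the control and 48.8% (45.4 to 52.1) for Flcn iΔEC mice. In B-cell-like cells, whose median depth was 6313 and 7872 UMIs, it was 0.0425% and 0.305%. With each cell thinned to 2000 UMIs, which left out 6 control and 3 Flcn iΔEC endothelial cells, the expected share was 3.64% (2.38 to 5.54) and 5.42% (4.11 to 7.10) in endothelium, against 0.0216% and 0.0840% in B-cell-like cells. At that depth the endothelial intervals of the libraries overlapped. For Fnip1 the thinned shares of endothelial cells were 3.29% (2.10 to 5.11) and 7.27% (5.74 to 9.17), and these did not overlap.

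Between the libraries, Fnip2 in endothelial cells had a ratio of 1.88 (1.61 to 2.21), which 4.29% of tested genes reached. The ratios of the named types ran from 0.91 to 2.75. VEC-like cells went from 14.8 CPM (22 UMIs) to 40.6 CPM (130 UMIs), a ratio of 2.75 (1.74 to 4.54). Capillary-like, HEV-like and proliferating endothelial cells had ratios of 2.38 (1.19 to 4.91), 2.27 (1.26 to 4.29) and 1.86 (1.15 to 3.10). LEC-like cells, already at 29.6 CPM in control mice, had 26.9 CPM in Flcn iΔEC mice, a ratio of 0.91 (0.66 to 1.28). AEC-like cells had 26.6 and 34.9 CPM, a ratio of 1.31 (0.94 to 1.85). So 4 of the 6 named types were higher, and the 2 with the highest control level had intervals that included 1. The difference between types was not tested. Within AEC-like cells, Fnip2 had 26.8 and 38.0 CPM in the Gkn3 and Gja5 cluster and 26.4 and 17.0 CPM in the Cxcl12 and Rbp7 cluster, and both intervals included 1. HEV-like cells were the lowest of the named endothelial types in both libraries, at 5.01 and 11.4 CPM. They lay apart from proliferating endothelial cells, the next in order, by 2.49 (1.27 to 5.03) and 2.05 (1.39 to 3.05) times. The HEV-like cluster also had all 7 ILC3 markers raised, and a Ptprc UMI in 83% of control and 80% of Flcn iΔEC cells. How far leukocyte RNA in these cells bears on their Fnip2 level was not tested. The cluster without control cells, led by Hbb-bt and Hba-a1, had Fnip2 at 36.5 CPM (27.3 to 47.9) and Fnip1 at 32.3 CPM (23.7 to 43.1), the former within and the latter just under the range of the named Flcn iΔEC types. Its other members were Tfeb at 32.3 CPM, Tfe3 at 17.6 CPM, Flcn at 10.5 CPM and Mitf with 1 UMI.

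**Figure D2:**
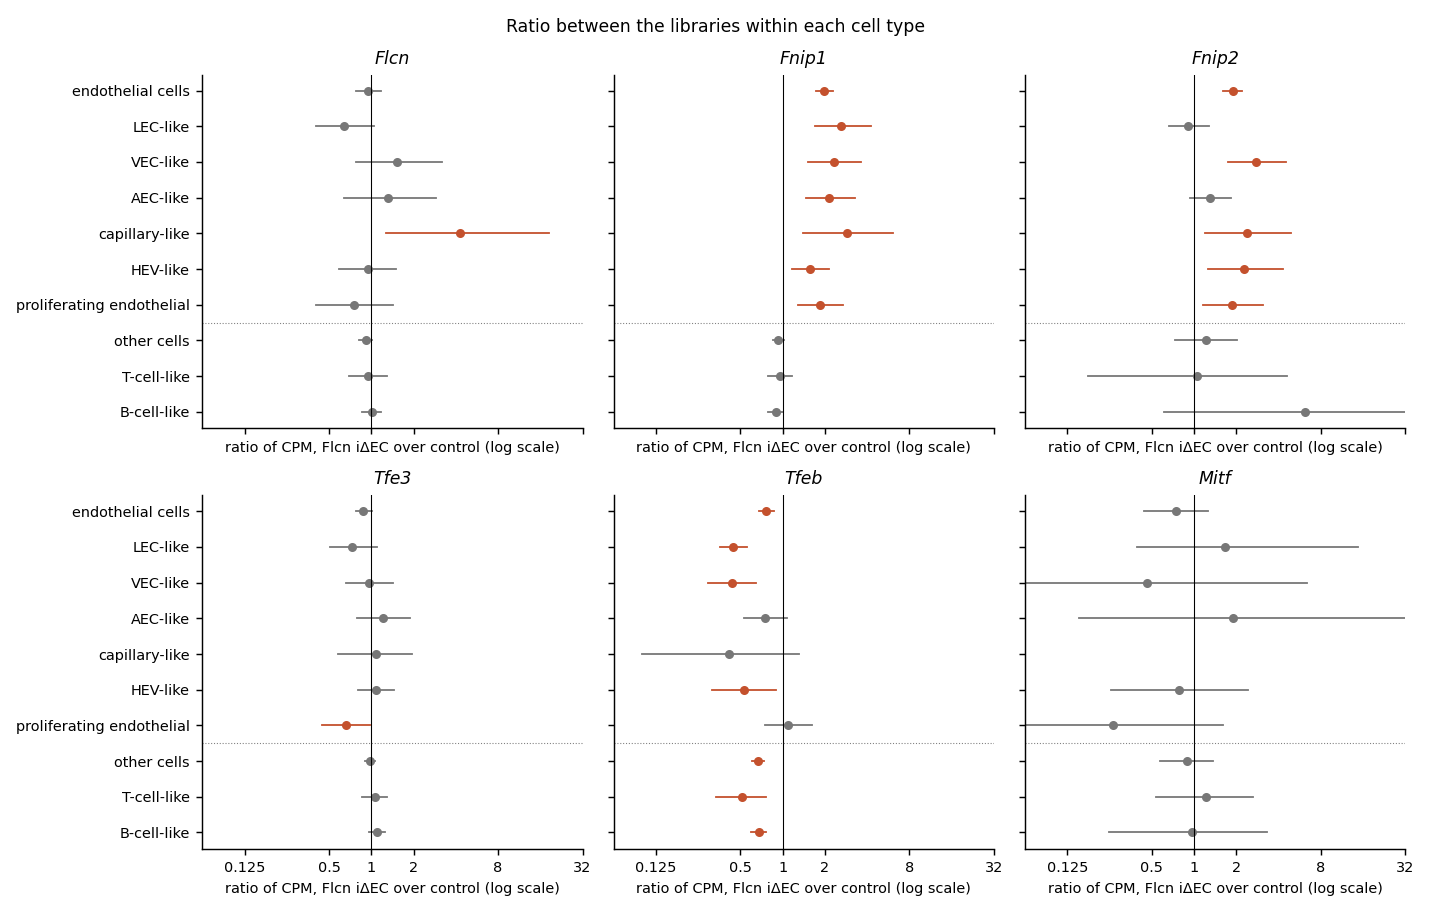
Ratio of CPM in the Flcn iΔEC over the control library (log axis, lines are exact 95% counting intervals, cut at the panel edge) for 6 members in endothelial cells, their 6 named types, other cells and 2 lymphoid types; orange marks intervals that leave out 1, and a value with no UMI in a library is not drawn. Fnip1 is to the right of 1 in all endothelial types and near 1 in other cells, whereas Tfeb is to the left of 1 in LEC-like, VEC-like, HEV-like, T-cell-like and B-cell-like cells.

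The balance between the FNIP genes was summarised as the Fnip2 share of all Fnip1 and Fnip2 UMIs. Since 3′ counts of different genes are captured with different efficiency, this share compares cells with each other and does not give the ratio of the transcripts. In endothelial cells it was 43.2% (38.6 to 47.8) of 463 control UMIs and 41.9% (39.6 to 44.2) of 1752 Flcn iΔEC UMIs, against 2.46% (1.74 to 3.38) and 3.20% (2.17 to 4.54) in the other cells. Among the latter, the cluster led by Fabp1 and Lypd8 had 29.0% (14.2 to 48.0) and 19.6% (9.82 to 33.1). LEC-like cells had a share of 67.6% (55.2 to 78.5) in control mice, and in Flcn iΔEC mice it was 42.1% (37.8 to 46.6), so these intervals did not overlap. AEC-like cells had 61.4% (50.4 to 71.6) and 49.1% (42.5 to 55.8). Their cluster led by Gkn3 and Gja5 had 54.7% and 53.3%, and the one led by Cxcl12 and Rbp7 71.4% (53.7 to 85.4) and 24.2% (11.1 to 42.3). HEV-like cells had 19.3% (11.4 to 29.4) and 25.7% (19.5 to 32.8), with intervals below those of LEC-like, AEC-like and VEC-like cells of the same library. Leukocyte RNA in HEV-like cells was not set apart from their own.

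**Figure D3:**
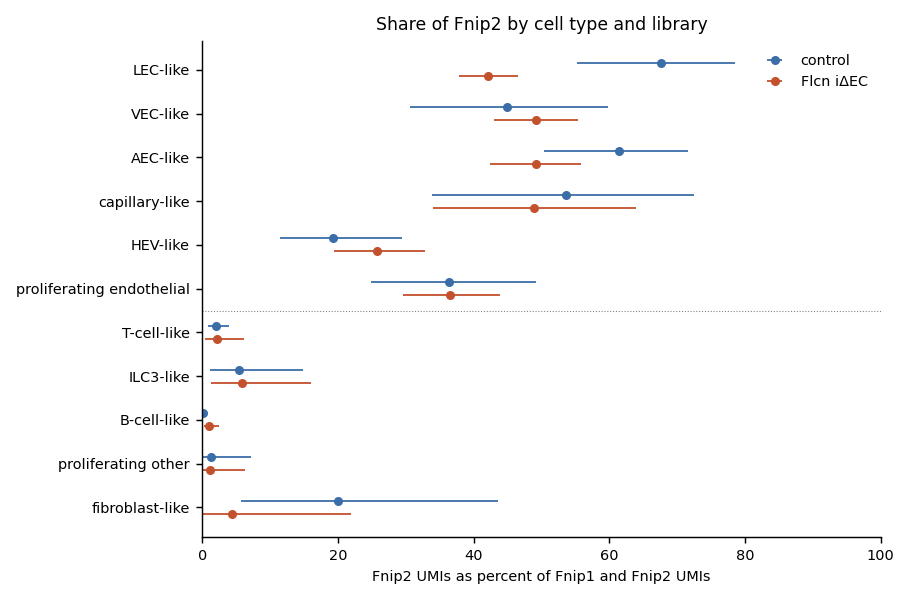
Fnip2 UMIs as a percent of all Fnip1 and Fnip2 UMIs by cell type, with exact binomial 95% intervals, in the control (blue) and Flcn iΔEC (orange) library. LEC-like cells go from 67.6% to 42.1%, and T-cell-like, ILC3-like, B-cell-like and proliferating other cells lie below 6% in both libraries.

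The promoters of both FNIP genes are shown because the genes were higher together, with those of Rragc and Lamp1, which were picked after their values and motifs were seen as higher genes with a match. Each window of 300 bases holds the 250 bases before the start of the RefSeq transcript and its first 50 bases on GRCm38.p6, 5′ to 3′ on the gene's strand. Capitals mark matches to CACGTG, the E-box, to TCACGTG, an E-box after a T, and to TCATGTG, searched on both strands; every TCACGTG match holds a CACGTG.
Fnip1, chr11:54437929-54438228, plus strand: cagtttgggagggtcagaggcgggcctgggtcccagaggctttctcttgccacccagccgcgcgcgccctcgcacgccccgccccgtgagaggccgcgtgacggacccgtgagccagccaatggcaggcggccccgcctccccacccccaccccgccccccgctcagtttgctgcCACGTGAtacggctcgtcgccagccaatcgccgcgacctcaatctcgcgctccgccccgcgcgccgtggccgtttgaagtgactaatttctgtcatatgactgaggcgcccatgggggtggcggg
Fnip2, chr3:79567630-79567929, minus strand: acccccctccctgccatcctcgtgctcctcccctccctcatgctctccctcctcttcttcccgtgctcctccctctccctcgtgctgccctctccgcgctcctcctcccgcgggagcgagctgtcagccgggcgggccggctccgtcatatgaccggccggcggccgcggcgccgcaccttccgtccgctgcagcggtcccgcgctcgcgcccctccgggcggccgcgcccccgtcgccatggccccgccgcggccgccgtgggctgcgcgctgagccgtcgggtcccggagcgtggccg
Rragc, chr4:123917183-123917482, plus strand: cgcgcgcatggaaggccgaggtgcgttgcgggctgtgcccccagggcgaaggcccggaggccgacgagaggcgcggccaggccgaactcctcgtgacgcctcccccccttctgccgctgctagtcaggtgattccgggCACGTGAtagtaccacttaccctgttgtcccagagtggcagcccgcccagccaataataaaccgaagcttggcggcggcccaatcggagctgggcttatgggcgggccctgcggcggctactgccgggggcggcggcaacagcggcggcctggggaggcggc
Lamp1, chr8:13158911-13159210, plus strand: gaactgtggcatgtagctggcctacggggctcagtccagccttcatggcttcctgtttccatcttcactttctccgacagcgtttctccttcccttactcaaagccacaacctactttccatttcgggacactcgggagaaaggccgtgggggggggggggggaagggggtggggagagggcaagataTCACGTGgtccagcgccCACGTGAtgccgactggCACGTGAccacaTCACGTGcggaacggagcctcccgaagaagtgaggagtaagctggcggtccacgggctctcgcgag
The Fnip1 window held 1 match, which starts 75 bases before the transcript start, and the Fnip2 window none. The windows of Flcn, Tfe3, Tfeb, Tfec and Mitf, 10 in all, held none of the 3 motifs. CACGTG was found in 7.15% of the 32851 windows of the table, TCACGTG in 3.77% and TCATGTG in 3.77%. A match is a description of the letters, and neither a match nor its absence shows whether a factor binds.

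Tfe3, which lies on the X chromosome, had 365 UMIs in control and 625 in Flcn iΔEC endothelial cells, or 26.2 CPM (23.5 to 29.0) and 23.0 CPM (21.2 to 24.8). The ratio was 0.88 (0.77 to 1.002) with an interval that just included 1, in libraries that differed in sex-linked genes. It was lower only in proliferating endothelial cells among the 6 named types, at 28.7 and 18.8 CPM, a ratio of 0.66 (0.44 to 0.97), where 21.1% of tested genes were lower. No neighbours in the order of the endothelial types were set apart in both libraries. In the other cells it stood at 27.4 and 26.8 CPM, a ratio of 0.98 (0.90 to 1.06). ILC3-like cells had 35.0 and 31.3 CPM. B-cell-like cells had 34.9 and 38.2 CPM, or 1.48 (1.33 to 1.65) and 1.82 (1.59 to 2.07) times the level of the remaining non-endothelial cells.

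Tfeb was lower in the Flcn iΔEC library, in endothelium and outside it. Endothelial cells had 410 control UMIs, or 29.4 CPM (26.6 to 32.4), and 613 Flcn iΔEC UMIs, or 22.5 CPM (20.8 to 24.4), a ratio of 0.77 (0.68 to 0.87). The other cells went from 25.7 to 17.3 CPM (1302 and 580 UMIs), a ratio of 0.67 (0.61 to 0.74), and 94.6% of the genes tested there had a ratio at least as high. With each of the 6 named types given the same weight, the mean ratio in endothelium was 0.572. LEC-like cells, which had the most Tfeb, made up 79 of the 566 control and 299 of the 892 Flcn iΔEC cells. LEC-like cells went from 76.5 CPM (63.4 to 91.6) to 34.1 CPM (30.2 to 38.4), a ratio of 0.45 (0.36 to 0.56). Of the 119 control UMIs 18 came from 1 cell, and a UMI was found in 57.0% of control and 53.8% of Flcn iΔEC cells. Thinned to 2000 UMIs per cell, these shares were 12.8% (7.12 to 21.9) and 6.54% (4.26 to 9.93), whose intervals overlap. The 3 LEC-like clusters had ratios of 0.49 (0.36 to 0.67), 0.38 (0.26 to 0.57) and 0.35 (0.16 to 0.78). VEC-like cells went from 38.2 to 16.5 CPM, a ratio of 0.43 (0.29 to 0.64), and HEV-like cells from 12.5 to 6.67 CPM, a ratio of 0.53 (0.31 to 0.89). Of the genes tested, 28.8% were lower in LEC-like, 20.4% in VEC-like and 13.6% in HEV-like cells. AEC-like cells had 31.1 and 23.4 CPM, a ratio of 0.75 (0.53 to 1.07), and capillary-like cells 15 and 4 UMIs, a ratio of 0.41 (0.10 to 1.30), in types where 24.2% and 11.7% of genes were lower. Proliferating endothelial cells, at 23.4 and 25.7 CPM, had a ratio of 1.10 (0.75 to 1.62).

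LEC-like cells had the highest Tfeb level of the endothelial types in both libraries. They stood above VEC-like cells, the next in the order over both libraries, by 2.002 (1.45 to 2.80) times in control mice and 2.06 (1.53 to 2.82) times in Flcn iΔEC mice. In Flcn iΔEC mice alone, proliferating endothelial cells (25.7 CPM) and AEC-like cells (23.4 CPM) lay between LEC-like and VEC-like cells. Against the other cells of the same library, endothelium as a whole had 1.14 (1.02 to 1.28) and 1.30 (1.16 to 1.46) times the level, and 0.893 (0.797 to 0.998) and 1.003 (0.894 to 1.13) with mitochondrial, ribosomal protein and hemoglobin genes left out of the total. HEV-like cells, most of them with a Ptprc UMI, were at 0.36 (0.26 to 0.51) and 0.26 (0.17 to 0.39) times the level of the remaining endothelial cells. Outside the endothelium B-cell-like cells had 46.4 and 31.3 CPM, or 3.13 (2.79 to 3.503) and 3.07 (2.59 to 3.65) times the level of the remaining cells. The ratio between the libraries was 0.67 (0.59 to 0.76) in B-cell-like, 0.51 (0.33 to 0.76) in T-cell-like and 0.41 (0.20 to 0.77) in ILC3-like cells, where 30.4%, 21.9% and 11.4% of tested genes were lower. It was 1.07 (0.79 to 1.46) in proliferating non-endothelial cells, at 29.5 and 31.5 CPM, and 1.06 (0.49 to 2.30) in an unnamed cluster led by Rag1 and Vpreb1, at 49.4 and 52.4 CPM from 15 and 16 UMIs. Whether the ratio of LEC-like cells differs from that of lymphoid cells was not tested, and the T-cell-like and ILC3-like intervals overlapped the LEC-like one.

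Mitf, best known as the regulator of pigment and mast cells, had few UMIs. Endothelial cells had 27 and 39 UMIs, or 1.93 and 1.43 CPM, a ratio of 0.74 (0.44 to 1.26). The other cells had 61 and 36 UMIs, or 1.20 and 1.07 CPM. ILC3-like cells had the highest level of the named types outside the endothelium, 6.43 CPM (16 UMIs) and 3.08 CPM (6 UMIs), which was 6.89 (3.63 to 12.4) and 3.25 (1.11 to 7.94) times that of the remaining non-endothelial cells. The unnamed cluster led by S100a9 and Lyz2 had 3.26 CPM (2 UMIs) and 17.3 CPM (6 UMIs), a ratio of 5.30 (0.95 to 53.6). At these counts a difference between the libraries in Mitf was not detectable in any named type with UMIs in both.

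Tfec, known mainly from macrophages, had no UMI in any endothelial cell of either library. There 3 counts would make 0.215 CPM in the control and 0.110 CPM in the Flcn iΔEC endothelium, or 0.0580 and 0.0805 times the level of the other cells. Outside it 188 UMIs were found in 16 control cells and 46 in 22 Flcn iΔEC cells. Most came from an unnamed cluster of 37 control and 70 Flcn iΔEC cells led by Fabp1 and Lypd8, genes of the intestinal epithelium, with 185 and 34 UMIs. Within it, a sub-cluster led by Apoa1 and Rbp2, drawn after the cluster was seen to mix several cell kinds, held 183 UMIs in 11 control cells, all with a UMI and up to 36 in 1 cell, and 15 UMIs in 4 Flcn iΔEC cells. Its levels were 213 CPM (183 to 246) and 104 CPM (58.4 to 172). In a sub-cluster of the S100a9 and Lyz2 cluster, led by S100a9 and S100a8, genes of neutrophils, Tfec had 9 UMIs in 18 Flcn iΔEC cells, or 29.6 CPM, and no UMI in 37 control cells, where 3 counts would make 6.02 CPM. Tfec in all other cells had a ratio of 0.37 (0.26 to 0.51), a value set by these few cells.

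The genes around the complex are described by 4 lists. These were chosen with earlier results of these data known, so their counts describe the listed genes and do not test the sets. Of 26 genes listed as MiT/TFE targets, 24 were higher in Flcn iΔEC endothelium and 1 was lower, beside 19.7% and 40.6% of all genes tested. Of the 25 with at least 50 UMIs, 13 passed a 2-fold ratio upward, beside 3.66% of all genes tested. Their median log2 ratio was 1.10, against -0.13 over all genes tested. In the other cells 6 of the 26 were higher and 9 lower, beside 28.6% and 29% of the genes tested there. Cd63 and Wipi1 (2 genes) passed 2-fold upward, beside 6.85% of genes, and the median was 0.01 against 0.00. By type, between 14 (capillary-like) and 21 (proliferating endothelial) of the 26 were higher, in types where 11.1% and 16.4% of tested genes were higher. The medians ran from 0.66 in AEC-like to 1.17 in LEC-like cells.

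Gpnmb, a lysosomal glycoprotein, went from 4 UMIs to 1438, or 0.287 to 52.8 CPM, a ratio of 184 (71.9 to 678). Among the named endothelial types of the Flcn iΔEC library, Gpnmb was highest in LEC-like (137 CPM), proliferating (76.1 CPM) and VEC-like cells (13.7 CPM). AEC-like and capillary-like cells had no Gpnmb UMI in either library. Ppargc1a, which encodes the mitochondrial coactivator PGC-1α, went from 2.79 to 48.6 CPM, a ratio of 17.4 (12.7 to 24.6). In LEC-like cells Ppargc1a rose from 16.7 to 132 CPM, a ratio of 7.92 (5.38 to 12.2). The pooled ratio was not corrected for the larger share of LEC-like cells in the Flcn iΔEC endothelium. In proliferating endothelial cells Ppargc1a went from 0 to 64.8 CPM. Their cluster, led by Spink4 and Defa24, was not split by vessel type, and 33% of its control and 23% of its Flcn iΔEC cells had a Ptprc UMI. How far its make-up bears on this value was not tested. AEC-like cells had 4.93 and 4.37 CPM, and the AEC-like, VEC-like, capillary-like and HEV-like intervals included 1. Cd63, a tetraspanin of late endosomes and lysosomes, went from 272 to 2263 CPM, a ratio of 8.31 (8.05 to 8.59), and was also higher in the other cells, from 40.6 to 90.8 CPM. The enzymes and lysosomal proteins Hexa, Ctsd, Grn, Ctsa, Tpp1 and the autophagy receptor Sqstm1 had ratios of 3.14, 2.84, 2.58, 2.38, 2.37 and 2.29. Uvrag was the list's only lower gene, at 0.81 (0.75 to 0.88), and was lower in the other cells too, at 0.83 (0.79 to 0.87).

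Of the 10 Rag and Ragulator genes 7 were higher in endothelium and 1 (Lamtor2, at 0.94) was lower, beside 19.7% and 40.6% of all tested genes. Upward, 2 passed 2-fold, beside 3.66% of tested genes. Rragd, which encodes a Rag GTPase on which folliculin acts, went from 1.58 CPM (22 UMIs) to 23.6 CPM (642 UMIs), a ratio of 14.97 (9.80 to 24.1). It was higher in each of the 6 named types, with 43.5 CPM in Flcn iΔEC LEC-like cells against 3.22 CPM in the control. Rragc, its close relative, went from 45.3 to 116 CPM, a ratio of 2.55 (2.34 to 2.79), and was also higher in each type. In the other cells Rragd stood at 4.46 and 5.001 CPM and Rragc at 42.6 and 40.7 CPM. Slc38a9, the arginine sensor, had 10.7 and 9.004 CPM in endothelium, a ratio of 0.84 (0.69 to 1.04).

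The 8 genes of mTORC1 and Rheb gave 2 higher and 4 lower genes in endothelium, beside 19.7% and 40.6% of all tested genes. Their median log2 ratio was -0.33, against -0.13 over all genes. Deptor, an inhibitor of mTOR, was the only one past 2-fold, from 10.4 to 4.04 CPM, a ratio of 0.39 (0.30 to 0.50). In the other cells it was higher, from 3.51 to 6.40 CPM, a ratio of 1.82 (1.49 to 2.24). Akt1s1, another inhibitory subunit, was the highest of the list at 1.37 (1.27 to 1.49). The 11 partners of the folliculin complex include AMPK subunits, HSP90 and GABARAP proteins. They gave 4 higher and 4 lower genes, beside the same shares of all tested genes, and none past 2-fold. Their median was 0.06. They ranged from Prkab2, at 0.65 (0.51 to 0.84), to Gabarap, at 1.84 (1.79 to 1.89).

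**Figure D4:**
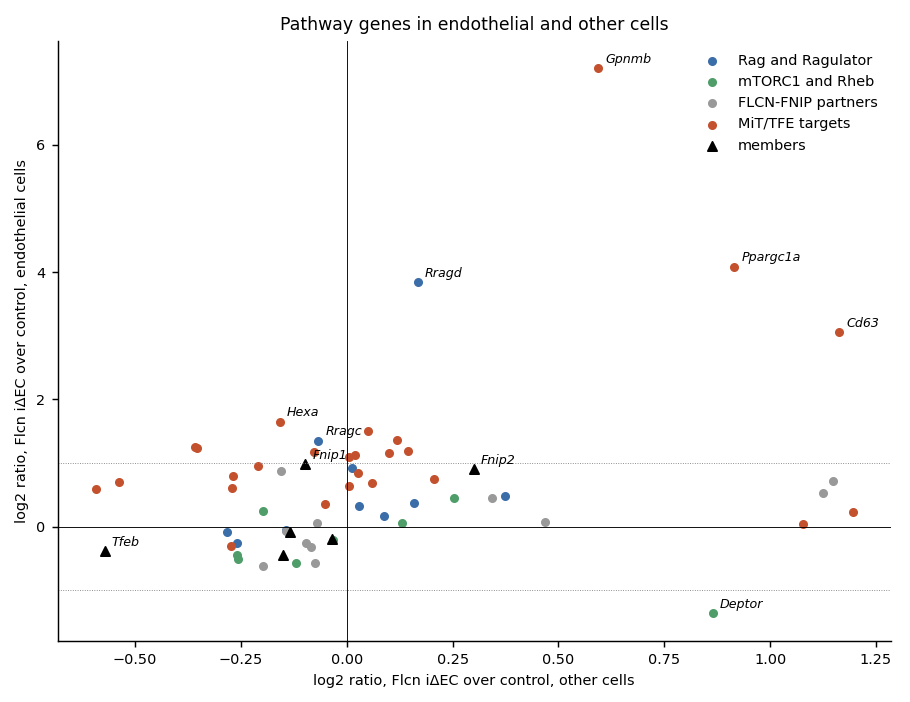
log2 ratio of Flcn iΔEC over control for the genes of 4 lists (dots) and 6 members (black triangles), in the other cells (horizontal) and the endothelial cells (vertical, on a wider scale), with 1 count added before scaling; dotted lines mark a 2-fold ratio in endothelial cells. Most MiT/TFE targets lie above 0 on the vertical axis and around 0 on the horizontal, with Fnip1 and Fnip2 just under the upper 2-fold line.

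Of the 26 target genes 19 had a promoter window in the table, and 7 of the 19 held CACGTG, as did 4 of 9 Rag and Ragulator genes, 1 of 7 mTORC1 genes and none of 9 partner genes. TCATGTG was held by 6 of the 19 target genes, 2 of 9 Rag and Ragulator genes, 0 of 7 mTORC1 genes and 1 of 9 partner genes. These are counts of genes, some with more than 1 window, while the 7.15% for CACGTG and 3.77% for TCATGTG over the whole table are shares of windows. Lamp1, with 4 matches, had 394 and 864 CPM in endothelium, a ratio of 2.19 (2.13 to 2.26). Of the genes named above with larger ratios, Gpnmb, Ppargc1a, Rragd, Cd63, Hexa, Grn, Tpp1 and Sqstm1 had no CACGTG in their windows. Rragc, Ctsd and Ctsa had it. Of all these genes, Ppargc1a, Grn, Tpp1 and Ctsa held TCATGTG. Whether either motif goes with the ratio was not tested.

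The genes whose levels were most like a member's were ranked over the 13 named types of both libraries, as log2(CPM + 1), among 10778 genes with at least 200 UMIs in each library. The points share libraries and unequal depths, and Tfec and Mitf had too few UMIs. Fnip2 was closest to Tmem44, Rab11fip5 and Mapk12, with r of 0.97 for each over 26 points. Over the 24 points without erythroid-like cells, where nearly all members were near 0, it was closest to Ctnnb1, Mapk12 and Tmem44. Fnip1 was then closest to Rragd (r = 0.72), Uap1l1 and Trmt6, and Tfeb to Upf3b (r = 0.87), B3gnt8 and Nhlrc2. With all 26 points Fnip1 was closest to Tti2, Trmt6 and Rrs1, and Tfeb to Nt5dc3, B3gnt8 and Abhd6. Tfe3 was closest to Slc25a28 (r = 0.98), Trmt1 and Csnk1g3, and without erythroid-like cells the r of the first of these fell to 0.76.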

How the data were processed

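Cells were bound to CD31 beads, and 3′ libraries (Chromium Single Cell 3′ v3) were sequenced and counted by the authors. The authors deposited a filtered matrix of raw UMI counts per library, made with Cell Ranger 3.0 on mm10 per the submitters' processing notes. No gene or cell was removed here. Counts were summed over cells of a group and divided by all UMIs of the group (CPM). Cells were split by Cdh5 and clustered with anchor integration (Seurat 5.3.0, R 4.3.3; 30 dimensions, resolution 0.8) without members and list genes, and clusters were named from marker lists (at least 3 markers, 2-fold, in 10% of cells). The T-cell lists were exempted from competing with each other after clusters were seen. Scrublet called 142 control and 37 Flcn iΔEC cells doublets. They were kept. Intervals for CPM are exact Poisson, for ratios exact conditional binomial, for shares Clopper-Pearson, and for thinned shares Wilson, all at 95% (scipy 1.17.1). Ratios over all genes used genes with at least 50 UMIs and 1 count added. The scripts were tested on simulated data. Named genes were all members, up to 12 list genes past 2-fold with an interval leaving out 1, the extremes of each list, and the 3 genes most like each member, which are not reported here for Flcn. Lamp1, Lamtor2 and Wipi1 were named after their values were seen. Members and lists were chosen with earlier results of these data known. Alternatives were another Cdh5 minimum, scaling, cell filters, doublet removal, equal weights per cell or type, and other clusterings. Promoters came from RefSeq (GRCm38.p6) and matched all 7 members. Positions came from GENCODE vM21. UMIs of droplet libraries include free RNA.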

Additional observations from a re-analysis of the deposited data

Results flagged for a closer look

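Fnip1 was flagged because its ratio of endothelial over other cells lay on opposite sides of 1 in the libraries, at 0.652 (0.569 to 0.743) in control mice and 1.39 (1.27 to 1.52) in Flcn iΔEC mice. In Flcn iΔEC mice it was 1.07 (0.973 to 1.17) with mitochondrial, ribosomal protein and hemoglobin genes left out of the total. The difference was not tested, since each genotype has 1 library. Its level in the other cells, 28.9 and 27.0 CPM, had a ratio with an interval that included 1, and the level in endothelium went from 18.8 to 37.4 CPM.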

How the results depend on the processing

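With 1 library per genotype the spread between mice is unknown, no replicate could be left out, and low counts limit Mitf, Tfec and the capillary-like values. Sex differs along with genotype between the libraries. No paired analysis was possible because each genotype has 1 library. Between the libraries, Fnip1 in endothelial cells stayed above 1 (1.85 to 2.29), as did Fnip2 (1.51 to 2.06), while Tfeb stayed below it (0.572 to 0.840), over 10 alternatives each. Of 59 such values 53 moved by less than their counting interval. The others were the mean of per-cell CPM for Flcn (1.28), Fnip1 (2.29) and Fnip2 (1.51), the equal weight of types for Flcn (1.25) and Tfeb (0.572), and Fnip2 without clusters with a Ptprc UMI in at least 75% of cells (1.602). That choice, leaving out the cluster without control cells and the sub-clusters were added after the data were seen. For endothelial over other cells, 95 of 112 values moved by less than their interval. Without mitochondrial, ribosomal protein and hemoglobin genes, values were, for the control and Flcn iΔEC library, 0.471 and 0.485 for Flcn, 0.509 and 1.07 for Fnip1, 0.744 and 0.659 for Tfe3, and 0.893, a reversal, and 1.003 for Tfeb. With per-cell means they were 0.489 for Flcn, 0.537 for Fnip1 and 31.9 for Fnip2 in the control, and 0.815 and 0.770 for Tfe3. Without the Ptprc-rich clusters Tfe3 had 0.768 in the Flcn iΔEC library and Tfeb 1.42 and 1.51. With 1 Cdh5 UMI as the minimum, Tfec had 0.344 in the Flcn iΔEC library, since Tfec-bearing cells with 1 such UMI then count as endothelial. Apart from that last value, the cause was not tested. With no minimum of UMIs, 1100 genes were past 2-fold upward and 2715 downward, against 469 and 799. Shares of endothelial cells with a UMI, thinned to 1000 UMIs, were 1.65% and 3.72% for Fnip1, 1.83% and 2.75% for Fnip2, and 2.98% and 2.28% for Tfeb. Unthinned they were 30.4% and 59.4%, 27.6% and 48.8%, and 40.5% and 43.7%. Tfec in the Fabp1-led cluster had 94.3 and 8.22 CPM, and 213 and 104 CPM in its Apoa1-led sub-cluster. Other clusterings left 48 of 48 values by type within their intervals, counted only where a clustering gave a type its name. At resolution 0.4 no cluster was named capillary-like. Without integration no cluster was named VEC-like, and 2 unnamed clusters held cells of nearly 1 library each (64 and 1, 1 and 129).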
